A study of Mus musculus with 12 samples.

Results

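The miR-148 and miR-152 seed family was followed in small RNA sequencing of mouse liver. Its members were taken by name from the deposited table of mature microRNAs: mmu-miR-148a-3p, mmu-miR-148a-5p, mmu-miR-148b-3p, mmu-miR-148b-5p and mmu-miR-152-3p (below without the species prefix mmu), which are 5 of the 1906 mature names in the table and were each counted at 1 locus. The table also holds miR-152-5p, the opposite arm of the third hairpin, which is described beside them as the partner of miR-152-3p. The study set male against female livers of the outbred mouse stock Crl:CD1(ICR) at 8 weeks of age, with 6 livers per sex and 1 library each. No treatment is named in the labels. The labels do not say whether animals shared litters, so the tests measure the variation among these 12 livers.

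MicroRNAs are cut as a short duplex from a hairpin precursor, and usually only 1 strand, the guide, is kept in an Argonaute protein, while the other, the passenger, is degraded. The guide finds messenger RNAs through its seed, bases 2 to 8 from the 5′ end, and lowers their translation and stability, so guides with the same seed share many targets. In the miR-148 and miR-152 family the guide comes from the 3p side. miR-148a is abundant in hepatocytes and is known as a repressor of the LDL receptor and of the cholesterol exporter Abca1, and guides of the family are known to target the maintenance DNA methyltransferase Dnmt1.

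The mature sequences are shown because the 3 guides differ so little that their counts depend on a few bases. They were taken from RefSeq (GRCm38.p6), where all 6 arms matched by name, and have the same lengths as in the deposited table. Each is written 5′ to 3′ with the seed in capitals.
miR-148a-3p: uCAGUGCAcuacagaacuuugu
miR-148b-3p: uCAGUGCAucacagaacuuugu
miR-152-3p: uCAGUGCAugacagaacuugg
miR-148a-5p: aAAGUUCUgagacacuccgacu
miR-148b-5p: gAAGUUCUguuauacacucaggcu
miR-152-5p: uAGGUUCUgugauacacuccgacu
With positions counted from 1 at the 5′ end of the first-named microRNA, miR-148b-3p differs from miR-148a-3p at 2 of 22 positions (C9U and U10C). miR-152-3p differs from miR-148a-3p at 3 of 21 compared positions (C9U, U10G and U20G) and from miR-148b-3p at 2 (C10G and U20G), and is 1 base shorter. All differences lie outside the seed. How many mismatches were allowed in alignment is not given in the sources used here, so some reads may have been counted under a sister guide, and the levels of the rarer guides are uncertain to that degree. The seed CAGUGCA stood at bases 2 to 8 in these 3 names and in no other of the 1622 names in the table that have a RefSeq sequence. The 5p arms fall into 2 seeds: AAGUUCU in miR-148a-5p and miR-148b-5p, which no other searched name had at bases 2 to 8, and AGGUUCU in miR-152-5p.

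The hairpins are shown because they set where both arms come from. In the following RefSeq hairpins the 5p arm and then the 3p arm are in capitals.
Mir148a: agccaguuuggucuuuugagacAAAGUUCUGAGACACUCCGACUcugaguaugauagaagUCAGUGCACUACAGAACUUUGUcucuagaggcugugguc
Mir148b: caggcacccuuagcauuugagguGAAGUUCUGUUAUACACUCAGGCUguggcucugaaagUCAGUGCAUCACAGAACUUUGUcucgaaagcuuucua
Mir152: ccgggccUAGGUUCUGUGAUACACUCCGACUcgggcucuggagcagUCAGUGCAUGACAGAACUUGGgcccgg
The arms are separated by 16, 13 and 15 bases in the order listed. On mm9, the build of the deposited table, miR-148a-3p lies at chr6:51219828-51219849 and miR-148a-5p at chr6:51219866-51219887. The hairpin is on the minus strand, lies between annotated genes, and has Nfe2l3 as the nearest coding gene in GENCODE vM21. miR-148b-5p (chr15:103115579-103115602) and miR-148b-3p (chr15:103115616-103115637) lie on the plus strand in an intron of Copz1. miR-152-5p (chr11:96711714-96711737) and miR-152-3p (chr11:96711753-96711773) lie on the plus strand in an intron of Copz2. Copz1 and Copz2 encode the 2 zeta subunits of the COPI vesicle coat, and both hairpins are on the strand of their host. No locus of another name overlapped any of the 6 arms, and the nearest microRNA of another name was 697 kb from miR-148a, 65 kb from miR-148b and 213 kb from miR-152.

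The libraries held 2953955 to 5516430 microRNA counts. Levels are given as CPM, counts per 1000000 counts of a library, after TMM scaling, edgeR's trimmed-mean method of setting libraries to a common size. A read spans a whole mature microRNA, so CPM of different microRNAs were not divided by length. Sequence-dependent differences in ligation and amplification were not measured. A floor of 3 counts corresponded to 0.544 to 1.02 CPM before TMM scaling, for counting error only, and all 6 arms lay above it in every liver. The hepatocyte marker miR-122-5p was at a mean of 319017 CPM in male and 343046 CPM in female livers.

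miR-148a-3p dominated the family in every liver. It was the third most abundant of the 419 tested microRNAs, after miR-122-5p and miR-21a-5p and above miR-192-5p (71212 ± 6405 against 65716 ± 4124 CPM, SD, n = 12), a gap smaller than its own SD. miR-152-3p ranked 45th at 1585 ± 284 CPM, between miR-16-5p (1591 ± 161 CPM) and the erythroid miR-451a (1570 ± 562 CPM), from which it differed by less than its SD. That position pools the sexes: in males both neighbours lay above its 1344 CPM (1490 ± 154 and 1565 ± 786 CPM), and in females both lay below its 1826 CPM (1693 ± 95.1 and 1575 ± 280 CPM; SD, n = 6 per sex). miR-148b-3p ranked 52nd at 1237 ± 88.1 CPM, between miR-122-3p (1373 ± 65.5 CPM) and miR-100-5p (1043 ± 106 CPM), both farther away than its SD. The 5p arms were far rarer, with miR-148a-5p 102nd (253 ± 30.4 CPM), miR-148b-5p 222nd (26.7 ± 4.55 CPM) and miR-152-5p 275th (13.3 ± 2.68 CPM). Together the 3 guides held 6.92 ± 0.607% of a male library and 7.90 ± 0.461% of a female one (SD, n = 6 per sex). These are shares of raw totals, without TMM scaling, and depend on the other microRNAs in a library. Of those, miR-21a-5p was at a mean of 170965 CPM in males and 82215 CPM in females. The difference between the sexes in the share was not tested. Of the reads of the 3 guides, 96.2 ± 0.331% were miR-148a-3p, 2.14 ± 0.317% miR-152-3p and 1.68 ± 0.199% miR-148b-3p (SD, n = 12).

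**Figure D1:**
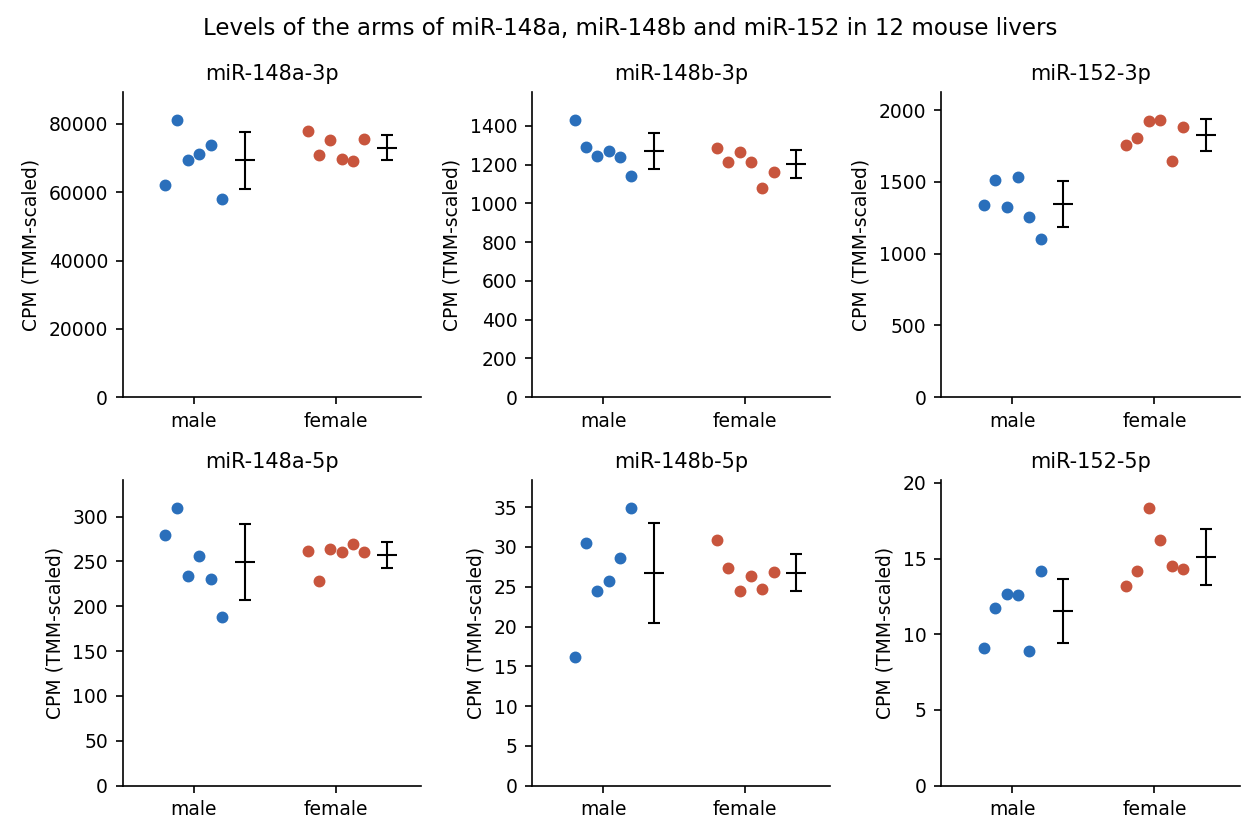
TMM-scaled CPM (y axis, from 0) of each arm in 6 male (blue) and 6 female (red) livers, 1 point per liver in replicate order, with the mean and SD as black bars. miR-152-3p is the arm whose sexes do not overlap, with males at 1104 to 1532 CPM and females at 1643 to 1933 CPM.

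Of the 3 guides, miR-152-3p differed between the sexes and was higher in females. Raw counts in males were 3198 at the lowest, 5109 at the median and 7346 at the highest, and in females 5662, 7335 and 10667. In CPM the males lay at 1104, 1332 and 1532 (lowest, median and highest) and the females at 1643, 1847 and 1933. All 6 female livers were thus above every male liver, and the lowest female, replicate 5, stood above the highest male, replicate 4. The male mean was 1344 ± 161 CPM and the female mean 1826 ± 113 CPM (SD, n = 6 per sex). The log2 fold change (male over female throughout) was -0.44, with a 95% confidence interval of -0.62 to -0.26, which is 1.36-fold (edgeR's quasi-likelihood test, Benjamini-Hochberg adjusted p = 0.00265 over 419 microRNAs). In these whole livers, fewer cells that contain miR-152-3p and less of it per cell cannot be told apart. With each liver left out in turn the log2 fold change stayed between -0.49 and -0.38 and the adjusted p did not exceed 0.0105. In the authors' deposited table the same microRNA has a log2 fold change of -0.41 with a p-value of 0.0039 and an FDR of 0.135, so it was not among the 48 of 2044 loci with an FDR under 0.05 there.

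The partner arm miR-152-5p had few reads, 28 to 57 per male and 50 to 81 per female liver. Its CPM was 8.89, 12.2 and 14.2 in males (lowest, median and highest) and 13.2, 14.4 and 18.3 in females. Of the females, 5 lay above every male, and female 1 fell within the male range. The log2 fold change of -0.39 (standard error 0.15) missed the threshold (edgeR's quasi-likelihood test, adjusted p = 0.082). It passed under scaling by library totals (-0.51, adjusted p = 0.0226).

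The other guides and their passengers did not pass the test. miR-148a-3p had 168371, 281694 and 394551 raw counts in males (lowest, median and highest) and 237843, 293318 and 427338 in females. Its CPM was 58122, 70403 and 81213 in males and 69010, 73077 and 77904 in females, so that the female range lay within the male range. The log2 fold change was -0.075 with a 95% confidence interval of -0.23 to 0.083 (edgeR, adjusted p = 0.54). With scaling by total counts alone it was -0.19 (edgeR, adjusted p = 0.054). miR-148b-3p had 3309, 4926 and 6265 raw counts in males and 3724, 4976 and 6582 in females. At 1142, 1258 and 1432 CPM in males and 1081, 1212 and 1286 CPM in females its sexes overlapped, with male 1 the highest liver and female 5 the lowest. Its log2 fold change was 0.078, with an interval of -0.063 to 0.22 (edgeR, adjusted p = 0.467). This direction turned with scaling by total counts alone (-0.026). That scaling shifted the median over all 419 microRNAs from -0.020 to -0.12, and miR-148b-3p stayed above that median.

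miR-148a-5p, the passenger of miR-148a, lay at 188, 245 and 309 CPM in males (545, 919 and 1503 raw counts) and at 228, 261 and 269 CPM in females (868, 1039 and 1473 raw counts). The female values were tight around 260 CPM apart from female 2, the lowest. Its log2 fold change was -0.044, with an interval of -0.27 to 0.19 (edgeR, adjusted p = 0.802). miR-148b-5p had 16.2, 27.2 and 34.9 CPM in males (at least 50 and at the median 104 raw counts) and 24.5, 26.6 and 30.8 CPM in females (at least 85 and at the median 104 raw counts). Males held both the lowest liver, male 1, and the highest, male 6. The means were 26.7 and 26.8 CPM, with a log2 fold change of -0.00093 and an interval of -0.34 to 0.34 (edgeR, adjusted p = 0.997). The sign of such a value is not informative, and it turned in several alternatives.

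Thus 1 of the 5 members was called, where 71 of 419 tested microRNAs, or 16.9%, were called in the whole table. The sexes did not overlap in 1 of the 5 members, against 34 of 419, or 8.11%, of all tested microRNAs. All 5 members passed the filter on low counts. A share near the background is no result about the family. Of the 71 calls, 35 (8.35% of those tested) were male-biased and 36 (8.59%), miR-152-3p among them, female-biased. Without adjustment 29.4% of the 419 had a p under 0.05, also 1 of the 5 members. The number called was 47 without male 3. With total-count scaling 31.0% of 84 calls were male-biased, against 49.3% with TMM. Among the 36 higher in females, 1 had a higher mean level than miR-152-3p, which ranked 25th of them by the size of the difference and 7th by p-value. Its biological coefficient of variation was 0.123, against a median of 0.196 over all tested microRNAs. miR-148a-3p (0.114) and miR-148b-3p (0.107) were lower, with 32 and 20 of the 419 names below them. Most tested microRNAs were rarer than these guides, so that median is not one of like levels. Neighbours in rank lay on both sides: miR-21a-5p at 0.165, miR-100-5p at 0.130, miR-16-5p at 0.115, miR-192-5p at 0.0990 and miR-122-3p at 0.0975. Low variation is therefore not given as a trait of the family.

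**Figure D2:**
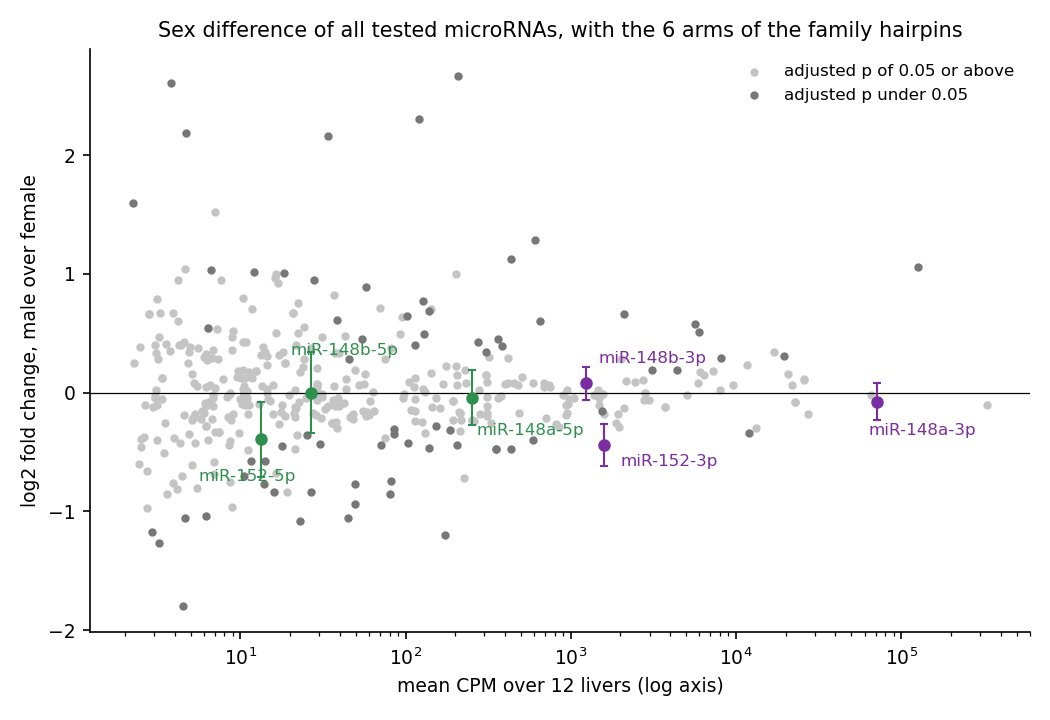
Log2 fold change of male over female (y axis) against mean CPM over 12 livers (x axis, log scale) for 419 tested microRNAs, dark grey where the adjusted p was under 0.05. The family's 3p arms (purple) and 5p arms (green) carry 95% confidence intervals, and the intervals of miR-152-3p and miR-152-5p lie below 0, the second without passing adjustment for 419 tests.

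The balance between the guides shifted with sex in the reads of miR-152-3p. Ratios of guides within a liver do not depend on how libraries are scaled. For each 1000 reads of miR-148a-3p, males had 17.0, 19.0 and 21.6 reads of miR-152-3p (lowest, median and highest) and females 22.6, 25.2 and 27.7. All 6 females lay above every male. The mean log2 ratio was lower in males by a difference of -0.37 (standard error 0.068, 1.29-fold; exact two-sided permutation test, p = 0.00216, adjusted over 3 ratios p = 0.00325). This raw p is the smallest that the design allows. Against miR-148b-3p, which is like it in level, miR-152-3p had 0.935, 1.04 and 1.20 reads per read in males and 1.37, 1.52 and 1.62 in females. The males thus had the 2 rarer guides at near equal levels, and every female had more miR-152-3p. The log2 ratio differed by -0.53 (standard error 0.070, 1.44-fold; exact permutation p = 0.00216, adjusted p = 0.00325).

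The ratio of miR-148b-3p to miR-148a-3p was 15.9, 17.9 and 23.1 reads per 1000 in males and 15.4, 16.7 and 17.4 in females. Males were above every female in 4 of 6 livers, with male 1 the highest and males 2 and 5 within the female range. The log2 difference of 0.16 (standard error 0.083) missed the threshold (exact permutation p = 0.0671, adjusted p = 0.0671). It passed without male 2 (0.20, adjusted p = 0.0173), and was 0.094 without male 1.

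**Figure D3:**
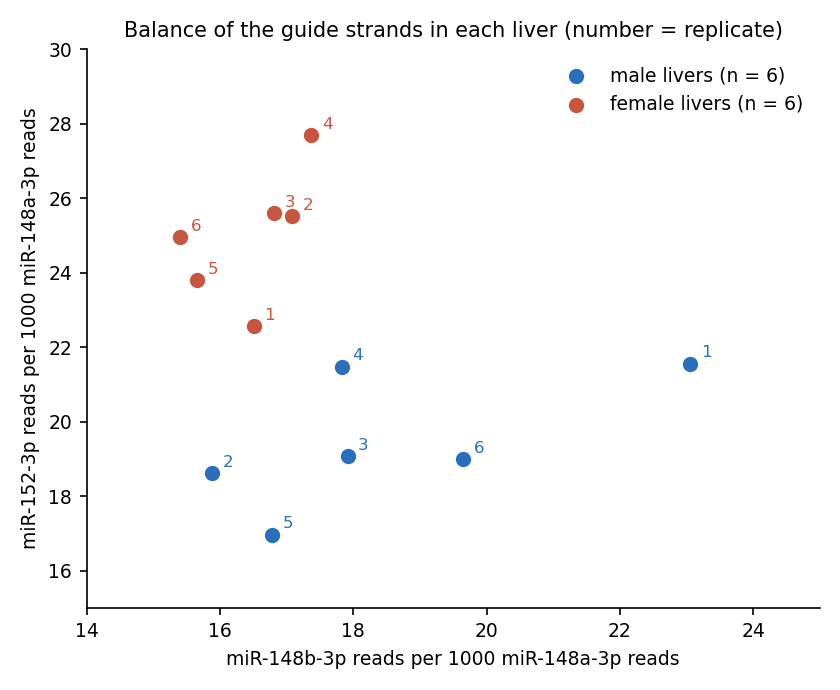
Reads of miR-152-3p (y axis) and of miR-148b-3p (x axis) per 1000 reads of miR-148a-3p in each of 12 livers, with males in blue, females in red and the replicate number beside each point; neither axis starts at 0. Females lie above males on the y axis, at 22.6 to 27.7 against 17.0 to 21.6 reads, and overlap on the x axis, where male 1 stands apart at 23.1.

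No difference between the sexes in the balance of guide and passenger arms passed the test. Of the reads of both arms, the 5p arm took 0.355 ± 0.0378% in miR-148a, 0.842 ± 0.158% in miR-152 and 2.14 ± 0.422% in miR-148b (SD, n = 12). There were thus 283 ± 27.6 guide reads per passenger read of miR-148a, 121 ± 18.8 of miR-152 and 48.2 ± 13.6 of miR-148b. Among 141 hairpins with both arms counted, the 3 ranked 7th, 12th and 19th by the share of the 3p arm in all reads. The log2 ratio of 3p to 5p differed between males and females by -0.023 (standard error 0.083) in miR-148a, by -0.046 (0.15) in miR-152 and by 0.11 (0.18) in miR-148b, with limma adjusted p-values of 0.915, 0.915 and 0.723 over all hairpins. Of the 3, 0 were called by limma, against 3 of 141 hairpins, or 2.13%, in all. Without adjustment 0 of the 3 had a limma p under 0.05, against 31 of the 141. The number of called hairpins was 10 without male 1, 8 without male 4 and 1 without female 2, 3 or 5.

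The livers at the extremes of 12 had 5p shares with separate intervals in miR-148b and miR-148a, and with overlapping intervals in miR-152, whose 5p arm had the fewest reads. These livers were picked by the shares themselves, so this is a description and not a test of the hairpins. In miR-148b the 5p share was lowest in male 1, at 1.12% (95% Wilson interval 0.849 to 1.47%), and highest in male 6, at 2.96% (2.44 to 3.59%). The females lay between 1.90 and 2.34%. Male 1 was at the other end in miR-148a, where it had the highest 5p share, 0.447% (0.419 to 0.478%), while male 5 had the lowest, 0.311% (0.291 to 0.331%). In miR-152 male 6 was again highest, at 1.27% (0.934 to 1.71%), and male 1 lowest, at 0.673% (0.466 to 0.970%). Male 6 was at the same time the lowest male in miR-148a-3p, miR-148a-5p, miR-148b-3p and miR-152-3p and the highest in miR-148b-5p and miR-152-5p. Males 1 and 6 had the smallest totals, 2953955 and 2967748 counts, and the part of depth or library quality in these values was not tested. The intervals cover counting error only.

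**Figure D4:**
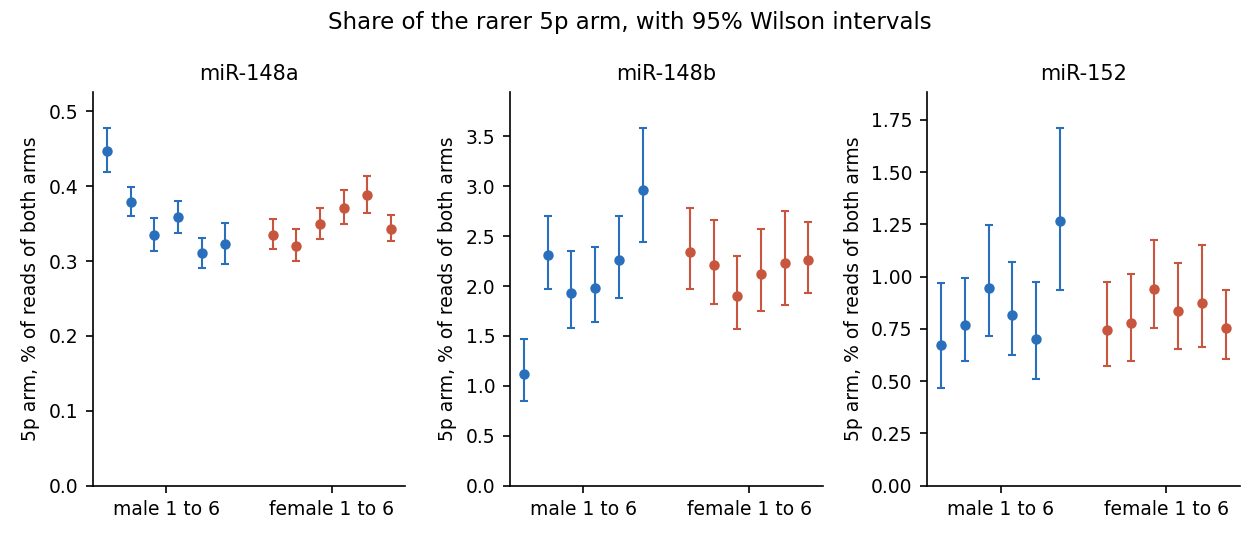
Share of the 5p arm in the reads of both arms (y axis, percent, from 0) for miR-148a, miR-148b and miR-152 in each male (blue) and female (red) liver in replicate order, with 95% Wilson intervals as bars. Male 1 is lowest in miR-148b at 1.12% and highest in miR-148a at 0.447%, and male 6 is highest in miR-148b and miR-152.

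The members did not rise and fall together detectably from liver to liver. Correlations used log2 CPM minus the mean of the sex, across 12 livers, for 10 pairs of members. The highest was between miR-148a-5p and miR-152-3p (r = 0.70, permutation p = 0.0505, adjusted p = 0.228; rho = 0.49, p = 0.167, adjusted p = 0.531). It was 0.85 within males and -0.10 within females, and 0.20 without males 2 and 6. Here and below, the 2 livers left out are those farthest from the median of the first-named member. Leaving out extremes narrows the range, which by itself can lower r, so no conclusion is drawn from such a fall. For miR-148a-3p and miR-152-3p r was 0.63 (p = 0.08, adjusted p = 0.228; rho = 0.35, p = 0.334, adjusted p = 0.556), and 0.11 without the same 2 livers. miR-148b-3p and miR-152-3p, the guides from the Copz1 and Copz2 introns, had r = 0.53 (p = 0.104, adjusted p = 0.228; rho = 0.48, p = 0.129, adjusted p = 0.531). Their r was 0.54 within males, 0.55 within females and 0.58 without male 1 and female 5. It was -0.10 with the sex difference left in the values.

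Arms of a single hairpin are set beside these values. The 2 arms of miR-148a had r = 0.58 (p = 0.15, adjusted p = 0.25; rho = 0.20, p = 0.582, adjusted p = 0.59), which was -0.40 without males 2 and 6. The 2 arms of miR-148b had r = -0.54 (p = 0.114, adjusted p = 0.228; rho = -0.21, p = 0.523, adjusted p = 0.59), with -0.90 within males and 0.52 within females. The other 5 pairs had r between -0.44 and 0.52, with adjusted p-values of at least 0.228. Among these, miR-148a-3p and miR-148b-5p went from 0.23 to 0.78 without males 2 and 6, the opposite way to the pairs above that are given without these same livers.

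The microRNAs most like each member over the 12 livers, among 300 others with a mean of at least 10 CPM and by r of the same deviations, were not other members. They are given as a description, and all share library and depth. For miR-148a-3p they were miR-126a-3p, an endothelial microRNA, together with miR-126b-5p, which is annotated at an overlapping position and has nearly the same counts (r = 0.89 for both), and the leukocyte microRNA miR-142a-5p (0.87). The r with miR-126a-3p was 0.98 within males and 0.30 within females, and that with miR-142a-5p was 0.93 and 0.80. miR-148a-5p was most like miR-27a-3p (0.85) and miR-24-3p with its overlapping partner miR-3074-5p (0.84 for both). Within males and females r was 0.91 and 0.39 with miR-27a-3p, and 0.99 and 0.27 with miR-24-3p. miR-148b-3p was most like let-7i-3p (0.89), miR-98-5p (0.88) and miR-143-3p (0.81), and miR-148b-5p most like miR-3068-5p (0.91) and miR-142a-3p with the overlapping miR-142b (0.90 for both). For miR-148b-3p r within males and females was 0.93 and 0.85, 0.83 and 0.99, and 0.94 and 0.63 in the order listed. For miR-148b-5p it was 0.94 and 0.63 with miR-3068-5p, and 0.91 and 0.81 with miR-142a-3p. miR-152-3p was most like miR-802-3p (0.83), miR-27a-5p (0.83) and miR-322-3p (0.81). Within males and females these were 0.86 and 0.74, 0.93 and 0.21, and 0.84 and 0.69 in the order listed. The closest other member of the family to miR-152-3p was miR-148a-5p, in 10th place.

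Markers of other liver cells are set beside the difference of miR-152-3p. Of 5 markers of stellate cells, fibroblasts and smooth muscle, 1 was called, miR-143-3p, lower in males at 10612 against 13396 CPM (log2 fold change -0.34, edgeR adjusted p = 0.0263), where 16.9% of all tested microRNAs were called. The others did not pass and had both signs, and are named after their values were seen. miR-199a-3p was at -0.18 and miR-214-3p at -0.11, lower in males. miR-199a-5p was at 0.085 and miR-145a-5p at 0.073 (both below 0 under scaling by library totals, at -0.016 and -0.015). The summed level of these markers was 10001 to 15645 CPM in males and 14470 to 17325 CPM in females, most of it miR-143-3p itself, and none of the 5 was at 0. The call of miR-143-3p was lost without any of males 2, 3 or 5 or females 1 or 2, with adjusted p-values up to 0.0632, and without a filter (0.0916). Of 5 immune markers, 1 was called, miR-142a-5p, also lower in males (-0.47, edgeR adjusted p = 0.0256), against the same 16.9%. The others did not pass, with log2 fold changes of -0.18 to -0.046 and edgeR adjusted p-values of 0.649 to 0.858. Among them was miR-142a-3p, the other arm of the same hairpin (-0.17, adjusted p = 0.762). The summed level of the 5 was 500 to 986 CPM in males and 799 to 1098 CPM in females. The call of miR-142a-5p was lost without any of males 3 or 6 or females 1 or 6, also up to 0.0632, and without a filter (0.0749).

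Endothelial (2 markers), erythroid (3) and biliary (5) markers had 0 called by edgeR's test at the adjusted threshold and 1 with an unadjusted p under 0.05, the erythroid miR-144-3p (-0.72, adjusted p = 0.0531), which is named after its value was seen. It passed under several alternatives, among them DESeq2 (adjusted p = 0.0214) and leaving out male 4 (0.0214) or female 5 (0.034). Their summed levels overlapped between the sexes, at 21232 to 28894 against 24161 to 27335 CPM, 828 to 3476 against 1637 to 2423 CPM and 803 to 7106 against 2316 to 7910 CPM in males and females. Of 4 hepatocyte markers, 1 was called, miR-802-5p (-1.20, edgeR adjusted p = 0.000398), at 105 CPM in males and 241 CPM in females. Over all tested microRNAs 16.9% were called, and 29.4% had an unadjusted p under 0.05. miR-122-5p (-0.10), miR-194-5p (-0.18) and miR-192-5p (-0.021) did not pass, with edgeR adjusted p-values of 0.132 to 0.82. The summed level was 397503 to 421818 CPM in males and 418117 to 469884 CPM in females, most of it miR-122-5p. No marker of these lists was at 0 in all livers. Their part in the difference of miR-152-3p was not tested.

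Other microRNAs with roles like those of the family are given by 2 lists. Both were taken by hairpin with every arm, so an arm counted here is not always the one with the known role. A list of microRNAs of cholesterol and lipid metabolism, without the family itself, had 38 tested arms, of which 3 were called with a male bias and 4 with a female bias. Over all 419 tested microRNAs 16.9% were called, and 7 of 38 is near that share. Its median log2 fold change was -0.032, against -0.020 over the 419. The 4 with the smallest p-values were miR-21a-5p (log2 fold change 1.06) and miR-29a-3p (0.51), higher in males, and miR-802-5p (-1.20) and miR-802-3p (-1.08), higher in females. A list of hairpins with microRNAs that are known to target DNA methyltransferases, again without the family, had 18 tested arms. Of these arms, 4 were called with a male bias and 3 with a female bias, against the same 16.9%. Their median log2 fold change over the 18 was 0.15. The called arms include paralogues of the miR-29 family and both arms of miR-143, so they are not independent. Whether their share differs from 16.9% was not tested. Higher in males were miR-29a-3p, miR-29b-3p (0.64) and miR-29c-3p (0.50), of a family that targets the de novo methyltransferases Dnmt3a and Dnmt3b, and miR-101b-5p (2.19). The last is the rare arm of miR-101b, with 0.0260% of the reads of its hairpin and 1.65 CPM in females, and the abundant arm miR-101b-3p did not pass (0.34, edgeR adjusted p = 0.187). Higher in females were miR-143-3p, miR-143-5p (-0.44) and miR-140-3p (-0.15), the last 2 named, like miR-101b-3p, after their values were seen. These calls were close to the threshold: miR-140-3p (edgeR adjusted p = 0.0497) lost it with any of 10 livers left out, and miR-143-5p (0.0273) with any of 5. miR-101b-3p passed without male 1 (0.00439).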

How the data were processed

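Small RNA libraries were made from total liver RNA with a commercial kit, per the labels' protocols. Trim Galore, Bowtie2, bedtools, edgeR and build mm9 are named in the submitters' processing notes. How reads were aligned, which microRNA annotation was used and whether counting was stranded is not given in the sources used here. Values came from 1 table: it holds the authors' raw counts per mature microRNA locus and liver, and the authors' log2 fold change, log2 CPM, p-value and FDR, per the file headers.

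Counts were summed over the loci of each name, filtered with filterByExpr, scaled by TMM and tested by edgeR 4.0.16's quasi-likelihood test under R 4.3.3 over 419 names, without covariates, at a Benjamini-Hochberg adjusted p of 0.05. The fold is male over female, and confidence intervals are 95%. CPM are scaled by TMM; log2 CPM used a prior count of 2. Arm ratios, log2 of counts with 0.5 added, were fitted with limma 3.58.1 over 141 hairpins with a mean of at least 5 counts per arm; miR-5615, whose arms had identical counts, was left out after the data were seen, which took the calls from 4 of 142 to 3 of 141 and no hairpin of the family with them. Ratios between guides were compared by exact permutation. A correlation counted as moved when it changed by over 0.2. Correlations used 100000 permutations within sex. The comparison and the arm fit were also run on simulated counts, with 1 biological coefficient of variation, 0.252, for every name. The guides had 0.107 to 0.123, so nothing about them is drawn from that run.

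Named are the members, the other arm of their hairpins, the 3 names most like each, the neighbours in rank of the guides, and up to 4 called names per list. The members and lists were chosen with earlier results of these data known. Alternatives were other scalings and filters, DESeq2 1.42.0, separate loci, a replicate block and each liver left out.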

Additional observations from a re-analysis of the deposited data

Results flagged for a closer look

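The level of miR-148a-5p in female 2, 228 CPM, stood apart from the other 5 female livers, of which the nearest had 260 CPM. The gap was 0.782 of the whole range of the females. In all, 26 groups of 6 livers were examined (levels of the 6 arms, 6 ratios and the share of the guides, in each sex), of which chance would single out about 1 in 20. The log2 fold change of miR-148a-5p without female 2 was -0.08 (edgeR, adjusted p = 0.712), and it was not called in either case.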

How the results depend on the processing

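miR-152-3p remained higher in females and past the threshold in all 20 alternatives run for it, with log2 fold changes of -0.55 to -0.38 and adjusted p-values of 9.29e-06 (DESeq2) to 0.024 (no filter). miR-152-5p passed only with scaling by total counts (-0.51). miR-148b-3p turned to -0.026 with that scaling. miR-148b-5p turned to 0.014 with DESeq2 and with its size factors in edgeR, to 0.0038 when miR-21a-5p and miR-122-5p were left out of scaling and to 0.046 without a filter. The number of called hairpins was 4 of 142 with miR-5615 kept, an alternative chosen after seeing the data, 5 with a prior of 5 counts and 0 by limma with at least 50 counts per arm, where 13 of 63 had an unadjusted p under 0.05. The share of the 3 guides over all livers, 7.41%, was 8.45% without miR-21a-5p and 11.1% without miR-122-5p in the total.

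With each liver left out, called microRNAs numbered 47 to 82 and called hairpins 1 to 10. miR-148a-5p ranged from -0.12 to 0.031 and miR-148b-5p from -0.080 to 0.095. The arm ratio ranged from -0.062 to 0.044 in miR-148a, -0.059 to 0.23 in miR-148b and -0.11 to 0.073 in miR-152. The ratio of miR-148b-3p to miR-148a-3p ranged from 0.094 to 0.20. Of other named microRNAs, some that were not past the threshold also turned direction: without a filter let-7i-3p (0.019), miR-122-3p (0.024), miR-192-5p (0.024), miR-98-5p (0.011) and miR-451a (0.019) turned. miR-451a turned with DESeq2's size factors (0.0032) and DESeq2 (0.0035), and miR-3068-5p (-0.040), miR-145a-5p (-0.015) and miR-199a-5p (-0.016) with total counts. With each liver left out let-7i-3p ranged from -0.13 to 0.068, miR-100-5p from -0.10 to 0.016, miR-142a-3p from -0.31 to 0.028, miR-142b from -0.31 to 0.028, miR-192-5p from -0.049 to 0.012, miR-27a-5p from -0.040 to 0.30, miR-451a from -0.31 to 0.16 and miR-145a-5p from -0.089 to 0.15. The cause of these changes was not tested.

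The replicate numbers are shared by the sexes but name no litter or batch, and livers of the same number had deviations correlated between -0.226 and 0.277, with 0 of 6 males closest to the female of their number. With the replicate block 48 microRNAs were called, miR-152-3p with -0.45 (edgeR adjusted p = 0.0125). Its ratios to the other guides gave an adjusted p of 0.0469 by exact sign permutation of the differences within numbers. The raw p of both ratios was the smallest that this test allows with 6 differences. The call of miR-142a-5p was lost under the block (adjusted p = 0.0825). Depth limits miR-152-5p and miR-148b-5p, with as few as 28 and 50 reads in a liver.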

Other observations

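The letters CAGUGCA also stand at bases 1 to 7, shifted by 1 base from the family's seed, in 7 other searched names, which include miR-130a-3p, miR-130b-3p and miR-301a-3p of the miR-130 and miR-301 family. These were chosen by their sequence after the results were known. miR-130a-3p had a mean of 114 CPM in male and 136 CPM in female livers (log2 fold change -0.24, edgeR adjusted p = 0.233), and miR-301a-3p had 2.10 and 2.88 CPM (-0.46, adjusted p = 0.268). The other 5 did not pass the filter on low counts, and miR-130b-3p had 32 counts over all 12 livers.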
